A study of Homo sapiens with 2 samples.

Results

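The genes described here are ubiquitin ligase genes of the RNF and MARCH families, measured by RNA sequencing in A549, an established human lung adenocarcinoma line. Wild-type cells with no treatment (WT) were compared with cells overexpressing MYOCD, the myocardin gene, whose product works with the transcription factor SRF in muscle cells. Each group was 1 library, so values carry no replicate error and no p-value could be made. No source used here gives the vector, the time after its delivery, or whether the overexpressing cells were a clone or a pool. The members were the 83 genes whose symbol is RNF followed by a number, with pseudogenes and 1 gene left out, and the 11 membrane-associated RING-CH (MARCH) genes, together 94 of 56257 gene symbols. The set was selected on the measured WT and MYOCD values, in that earlier results of this contrast were known when it was proposed, so the counts and differences below are descriptions.

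Ubiquitin is passed from an activating enzyme (E1) to a conjugating enzyme (E2), and a ligase (E3) then brings the loaded E2 to a chosen protein. RING ligases bind the E2 through a small zinc-binding fold, the RING finger, and MARCH proteins carry a variant of it called RING-CH. Many RNF proteins and most MARCH proteins sit in membranes, where they set the fate of receptors, transporters and misfolded proteins, while others act in the cytosol or on chromatin. SRF acts at a DNA element called the CArG box, to which myocardin is recruited through SRF.

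Values are RPKM, reads scaled to gene length and library size. The log2 change is log2((MYOCD RPKM + 0.5)/(WT RPKM + 0.5)), which understates the change of low genes. A gene was counted when it reached 1 RPKM in at least 1 library, and called higher or lower at 2-fold or more on this scale. MYOCD itself was 0.304 RPKM in WT and 48.6 in the library labelled MYOCD, in the direction of the labels. Of 8 lung epithelial carcinoma markers, 5 reached 1 RPKM, led by KRT8, KRT18 and KRT7. EPCAM was the 1 called higher, at 0.889 and 2.57 RPKM in WT and MYOCD, and the lung lineage markers NKX2-1, SFTPC and SFTPB stayed at or under 0.12 RPKM. The summed level of 5 fibroblast markers was 3.35 RPKM in WT and 14.8 with MYOCD, of which COL1A1 alone gave 3.05 and 14.3, while DCN was listed at 0 in both. The 4 blood cell markers summed to 1.49 and 1.05 RPKM, with PTPRC listed at 0, and the 3 endothelial markers to 0.00689 and 0.139, with CDH5 and VWF listed at 0. The part of these markers in the results below was not tested. In bulk RNA, fewer cells with a transcript and less of it per cell cannot be told apart.

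Of the 94 members, 71 passed the filter, and 6 of them stood higher in MYOCD while 0 stood lower. Over all 17352 genes past the filter, 5.42% were called higher and 6.35% lower, together 11.8%, and over 12339 protein-coding genes 3.01% and 3.1%, together 6.11%. RNF128, MARCH10, RNF182 and RNF122 were under 1 RPKM in WT and passed only through the MYOCD library, so a difference was built into their passing. MARCH9 and MARCH4 passed in both libraries. The median log2 change was 0.02 over the 61 RNF members that passed and 0.08 over the 10 MARCH members, beside -0.00 over all genes. Summed over all 94 members, the level was 1622 RPKM in WT and 1620 with MYOCD. Of the 23 members under the filter, 4 were listed at 0 in both libraries and none exceeded 0.885 RPKM.

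**Figure D1:**
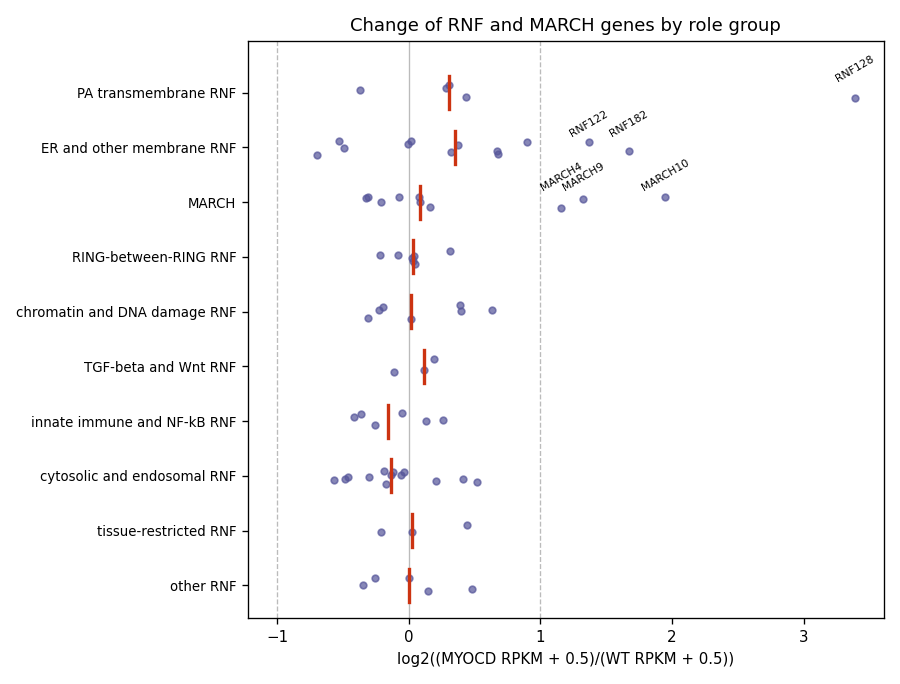
Each point is an RNF or MARCH gene past the filter (71 in all), placed by its log2 change between the MYOCD and the WT library on the horizontal axis and by role group on the vertical axis, with red bars at group medians and dashed lines at 2-fold. The 6 genes at or beyond 2-fold are labelled and lie in the top 3 rows.

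The largest difference was in RNF128, the gene of a single-pass ligase (GRAIL) known for holding T cells unresponsive. It is a protein-coding gene between positions 106693794 and 106796993 on chromosome X (plus strand, GRCh38). Its level was 0.199 RPKM in WT and 6.82 RPKM with MYOCD, a ratio of 34.2 between the deposited values and a log2 change of 3.39. The WT value lies near the floor of the table, so the size of that ratio is uncertain. RefSeq gives it a pair of start sites, and the stretches just upstream of each are shown because they differ in CpG content, marked by capitals. Bases inside GENCODE exons were left off, and sequences are from RefSeq (GRCh38.p14, plus strand).
RNF128 upstream start, chrX:106693588-106693793: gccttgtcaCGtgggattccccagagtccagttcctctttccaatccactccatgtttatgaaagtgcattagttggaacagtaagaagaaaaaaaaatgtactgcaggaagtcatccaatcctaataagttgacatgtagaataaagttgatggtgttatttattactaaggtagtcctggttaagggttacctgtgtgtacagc
RNF128 downstream start, chrX:106726451-106726663: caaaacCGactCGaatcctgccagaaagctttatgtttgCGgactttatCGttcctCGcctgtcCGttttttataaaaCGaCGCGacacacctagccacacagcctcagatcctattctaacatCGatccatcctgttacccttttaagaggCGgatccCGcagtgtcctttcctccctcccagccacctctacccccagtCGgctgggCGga
The upstream stretch holds 1 CpG in 206 bases and the downstream one 14 in 213, or 0.485 and 6.57 per 100 bases, where the median over all 35116 windows of 250 bases is 4.4. The table holds 1 value per gene, so which start was used is not known.

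RNF128 belongs to ligases with a protease-associated (PA) domain facing the outside or the lumen of a vesicle, a membrane span and a cytosolic RING. Of 8 such members 5 passed, with 1 called higher and 0 lower. The 1 is RNF128, which passed only through its MYOCD value. Of all genes past the filter 5.42% were higher, and of protein-coding genes 3.01%. RNF167 and RNF13, both of endosomes and lysosomes, stood at 47.7 and 64.7 RPKM and at 48.1 and 37.2 RPKM in WT and MYOCD. RNF130, the human goliath gene, stood at 25.7 and 31.9 RPKM, and RNF149 at 27.1 and 33.1. These 4 were well expressed and lay under 2-fold, RNF13 lower and the other 3 higher. RNF150 was at 0.350 and 0.761 RPKM, under the filter in both. RNF148 was listed at 0 and 0.0884, and RNF133 at 0 in both libraries.

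Genes around RNF128 were also compared. All 5 protein-coding genes past the filter with a start site within 500 kb of that of RNF128 lay above 0, and 2 were called higher. CXorf57 stood at 0.620 and 4.55 RPKM in WT and MYOCD, with its start at -81.9 kb from that of RNF128, on the upstream side. CLDN2, a claudin gene 206 kb beyond it, stood at 3.18 and 7.48 RPKM, and MORC4 at 29.2 and 58.1. RBM41 (9.63 and 14.8 RPKM) and TBC1D8B (4.29 and 5.02) differed less. Over a wider window of 5 Mb, 19 of 30 genes were above 0 and 2 were called higher, with a median of 0.08, and the median over 392 genes of chromosome X was -0.01. Whether these genes share a cause with RNF128 was not tested.

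**Figure D2:**
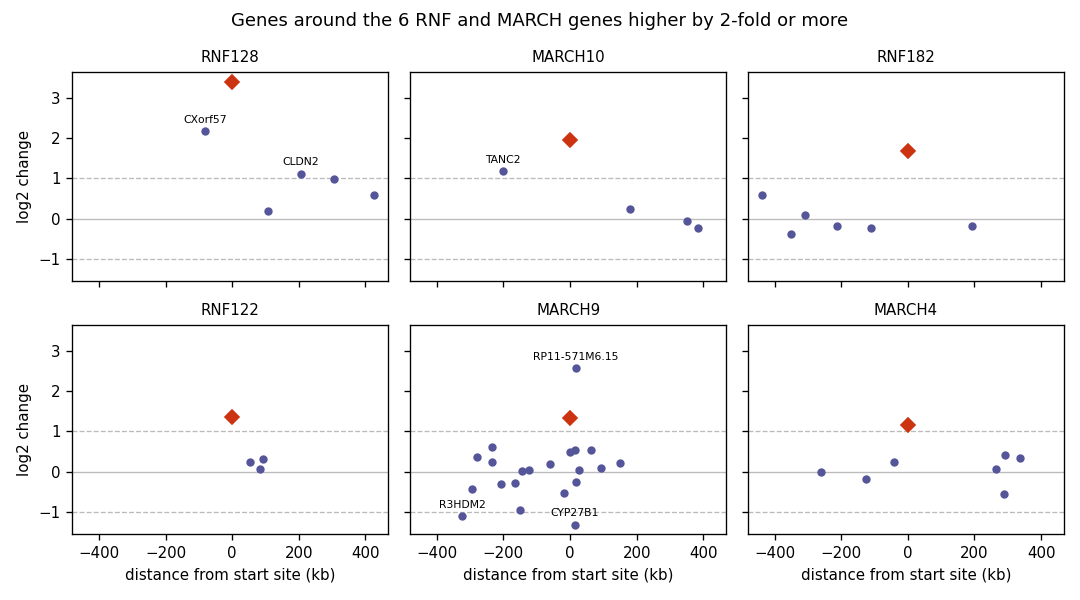
Each panel shows the log2 change (vertical axis) of protein-coding genes past the filter against the distance of their start site in kb (horizontal axis, positive in the direction of transcription) from 1 of the 6 genes called higher, which is the red diamond at 0. Dashed lines mark 2-fold, and all 5 neighbours of RNF128 lie above 0, as do all 3 of RNF122 at smaller values, while those of RNF182, MARCH9, MARCH10 and MARCH4 lie on both sides.

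Among the MARCH genes 3 of 10 past the filter were called higher. Of all genes past the filter 5.42% were higher, and of protein-coding genes 3.01%. In the table the MARCH genes are written as dates, 1-Mar to 11-Mar. The Ensembl identifiers were used to tell them from MARC1 and MARC2, mitochondrial enzyme genes that share the labels 1-Mar and 2-Mar. MARCH4 and MARCH9 are close relatives whose proteins take MHC class I and other surface proteins off the cell membrane. MARCH9, lying between 57755098 and 57760407 of chromosome 12 (plus strand), stood at 3.26 RPKM in WT and 8.92 with MYOCD, a log2 change of 1.33. MARCH4, lying between 216257865 and 216372027 of chromosome 2 (minus strand), stood at 5.33 and 12.5 RPKM, a log2 change of 1.16. Both genes of the pair were thus higher, by 2.74 and 2.35 times. MARCH10, lying between 62701314 and 62808344 of chromosome 17 (minus strand), is known from the testis and, like MARCH7, encodes a protein without a membrane span. It stood at 0.153 RPKM in WT and 2.02 with MYOCD, a log2 change of 1.95, and is among the 10 only through its MYOCD value.

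The upstream stretches of the 3 genes are given to show that they are unlike each other, again with CpG in capitals, GENCODE exon bases left off, and sequences from RefSeq (GRCh38.p14) read in the direction of transcription. They precede RefSeq start sites, which for MARCH4 and MARCH10 differ from the GENCODE gene ends above.
MARCH4, chr2:216372484-216372733, minus strand: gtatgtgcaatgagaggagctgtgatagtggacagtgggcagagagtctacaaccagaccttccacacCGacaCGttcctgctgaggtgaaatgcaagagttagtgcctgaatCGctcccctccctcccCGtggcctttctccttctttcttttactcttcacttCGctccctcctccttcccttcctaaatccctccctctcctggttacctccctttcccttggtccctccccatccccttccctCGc
MARCH9, chr12:57754853-57755097, plus strand: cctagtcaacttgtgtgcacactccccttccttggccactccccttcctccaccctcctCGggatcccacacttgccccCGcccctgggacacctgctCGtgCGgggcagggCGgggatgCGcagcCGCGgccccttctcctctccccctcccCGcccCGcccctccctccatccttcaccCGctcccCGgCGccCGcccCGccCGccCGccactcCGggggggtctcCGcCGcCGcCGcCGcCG
MARCH10, chr17:62806654-62806890, minus strand: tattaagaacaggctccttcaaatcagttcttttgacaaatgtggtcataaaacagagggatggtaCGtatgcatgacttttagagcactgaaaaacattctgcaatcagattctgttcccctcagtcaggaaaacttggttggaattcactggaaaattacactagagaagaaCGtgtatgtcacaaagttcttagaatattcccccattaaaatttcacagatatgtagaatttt
MARCH9 has 24 CpG in 245 bases and a GC content of 76.3%, MARCH4 has 6 in 250 bases and 55.2%, and MARCH10 has 2 in 237 bases and 35.9%. The CArG box (CC, 6 bases of A or T, and GG, which reads alike on both strands) was searched in RefSeq windows of 300 bases, from 250 before to 50 after each start. It was found in windows of 438 of 27305 genes, or 1.60%, and in 0 of the 77 members that had a window. RNF122 and 16 other members had none to search.

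The remaining MARCH genes lay close to their WT values. MARCH7 and MARCH6 were the most abundant, at 89.9 and 72.3 RPKM and at 75.8 and 65.6 RPKM in WT and MYOCD. MARCH6 is a ligase of endoplasmic reticulum (ER) membranes that degrades the sterol enzyme squalene epoxidase. MARCH5, a ligase of the outer mitochondrial membrane that acts on the fission and fusion machinery, stood at 29.2 and 31.1 RPKM. MARCH8 (7.89 and 8.37 RPKM) and MARCH1 (1.56 and 1.45), relatives that take transferrin receptor and MHC class II from the surface, differed little. MARCH2 stood at 11.6 and 9.14 RPKM, its relative MARCH3 at 1.34 and 1.56, and MARCH11 was listed at 0 in both. Summed over the 11 genes the level was 226 RPKM in WT and 213 with MYOCD, with MARCH7 and MARCH6 giving the largest share of it.

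**Figure D3:**
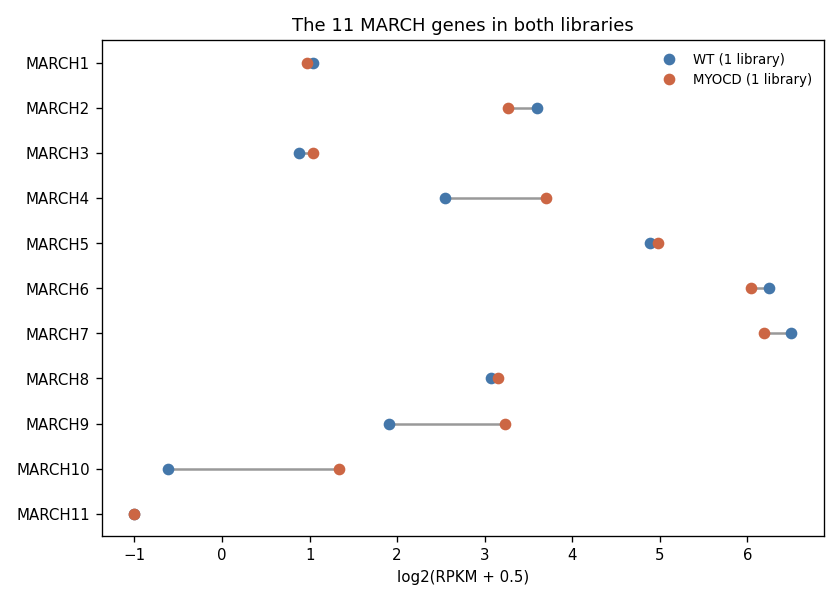
For each of the 11 MARCH genes (vertical axis) the level in the WT and the MYOCD library is drawn as log2(RPKM + 0.5) on the horizontal axis, joined by a line. MARCH4, MARCH9 and MARCH10 show the long shifts to the right, and MARCH11 lies at 0 RPKM in both, where the points coincide.

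Genes around the MARCH members called higher showed no common shift. Of 21 neighbours of MARCH9 within 500 kb, 1 was called higher and 2 lower. The lower ones were CYP27B1, the gene of the vitamin D 1-alpha-hydroxylase, at 3.90 and 1.27 RPKM, and R3HDM2 at 31.99 and 14.7. CDK4, whose start lies 0.915 kb from that of MARCH9, stood at 95.8 and 135 RPKM and was not called. The gene model called higher, RP11-571M6.15, was given as 0 for WT and 2.44 RPKM with MYOCD. Of 4 neighbours of MARCH10, TANC2 was higher (13.3 and 30.9 RPKM), with its start at -201 kb, on the upstream side. None of the 7 neighbours of MARCH4 was called. An antisense model, AC005821.1, overlaps 28.5% of the exon bases of MARCH10 and stood at 0.0251 RPKM in WT and 0 with MYOCD. AC012513.1 overlaps 1.91% of MARCH4 and was listed at 0 and 1.07 RPKM.

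The RNF proteins of the ER and other membranes had 2 of 12 members past the filter called higher and 0 lower, with a median of 0.35. Of all genes past the filter 5.42% were higher, with a median of -0.00, and of protein-coding genes 3.01%. RNF182, a brain-enriched ligase with a pair of membrane spans, lying between 13924446 and 13980302 of chromosome 6 (plus strand), stood at 0.281 RPKM in WT and 1.99 with MYOCD, a log2 change of 1.67. RNF122, a small ER ligase gene lying between 33547755 and 33567125 of chromosome 8 (minus strand), stood at 0.954 and 3.25 RPKM, a log2 change of 1.37. Both were scarce in WT, as were RNF128 and MARCH10. RNF182 and RNF122 are among the 12, and in their median, only through their MYOCD values. Of 6 neighbours of RNF182 and 3 of RNF122, 0 were called.

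Further members of this group differed by 1.5-fold or more without reaching 2-fold. RNF170, which directs the activated IP3 receptor to degradation, stood at 15.9 RPKM in WT and 30.2 with MYOCD (log2 change of 0.90), just under the threshold. MIR4469, a small RNA model, lies in RNF170 exons on the same strand, and its part in that value was not tested. RNF121, of the Golgi and ER, stood at 25.01 and 40.4 RPKM (0.68). RNF215 stood at 11.7 and 18.9 RPKM (0.67), but it lies on chromosome 22, where 80.1% of 297 protein-coding genes were above 0 and the median was 0.30. RNF185, an ER quality control ligase gene on the same chromosome, stood at 8.27 and 8.26 RPKM. RNF103, an ER ligase, went the other way, from 18.9 RPKM in WT to 11.5 in MYOCD (-0.69), and was the 1 member lower by 1.5-fold on the scale with the pseudocount. RNF115, a cytosolic ligase, has a ratio of 1.51 between its deposited WT and MYOCD values and misses that size once the pseudocount is added. Including the 6 called genes, 10 members were higher by 1.5-fold or more, where 11.6% of all genes were higher and 13.2% lower at that size, and 8.52% and 8.89% of protein-coding genes.

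The sterol-linked ligases of the ER did not move alike. RNF145 and RNF139 both take part in the control of sterol synthesis. RNF145 stood at 48.5 and 60.8 RPKM and RNF139 at 20.9 and 14.4 in WT and MYOCD. The sterol sensor gene INSIG1 was at 15.2 and 10.04 RPKM, and SQLE, whose product MARCH6 degrades, at 47.6 and 37.01. All of these lay under 2-fold. RNF5, which shares ER substrates such as mutant CFTR with RNF185, stood at 18.1 and 12.7 RPKM, and its processed pseudogene RNF5P1 was listed at 0. RNF26 stood at 19.04 and 19.3 and RNF24 at 7.42 and 9.77. AP003396.1 (19.5 and 18.3 RPKM) overlaps 18.2% of the RNF26 exon bases on the opposite strand, and its part in the RNF26 value was not tested. RNF152, RNF175, RNF180, RNF183 and RNF186 were under 0.33 RPKM in both libraries.

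**Figure D4:**
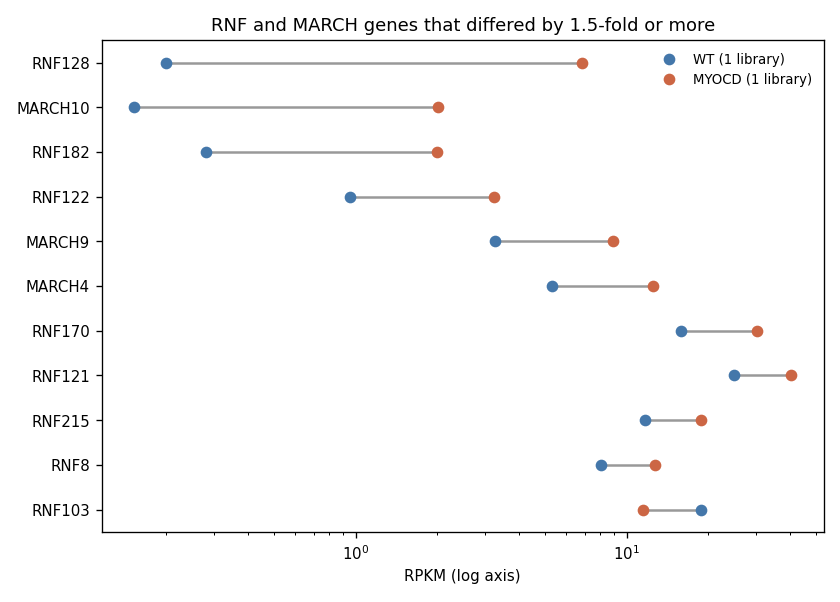
The 11 RNF and MARCH genes that differed by 1.5-fold or more are listed from the highest to the lowest log2 change (vertical axis), with their RPKM in the WT and the MYOCD library on a log horizontal axis. The top 4 genes lie under 1 RPKM in WT, and RNF103 is the 1 gene whose MYOCD point lies to the left.

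The called genes shared a low WT level and, in 5 of 6 cases, a membrane span. None of the 6 exceeded 5.33 RPKM in WT, and their higher value lay between 1 and 15 RPKM. That band was set with the called genes known, so it holds all 6 by choice. RNF128, MARCH10, RNF182 and RNF122 are in it only through their MYOCD values. In that band 29 members were found, of which 6 were called higher, and 0 lower. In the same band 6.73% of all genes were higher and 7.87% lower (14.6% together), and 4.7% and 4.85% of protein-coding genes (9.55% together). Of the 26 members with a mean of at least 20 RPKM, 0 were called, where 3.07% of all genes at that level were higher and 3.78% lower (6.85% together), and 1.11% and 1.17% of protein-coding genes (2.28% together). A count of 0 among 26 is therefore near these shares. Members counted as membrane-spanning were the PA group, the ER and other membrane group, and the MARCH genes other than MARCH7 and MARCH10. RNF19A, RNF19B, RNF144A, RNF144B and RNF217 were counted too. Of 29 such members past the filter 5 were higher, as was 1 of the remaining 42. Past the filter, 5.42% of all genes and 3.01% of protein-coding genes were higher. The membrane split was drawn up with the values known and is a description.

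The RING-between-RING ligases, which carry ubiquitin on a cysteine of their own before passing it on, had 0 of 7 members called and a median of 0.03. Past the filter 6.11% of protein-coding genes were called, so a count of 0 among 7 is near that share. RNF14 stood at 28.7 and 29.6 RPKM in WT and MYOCD. RNF31, the catalytic subunit of the complex that builds linear ubiquitin chains, stood at 24.7 and 25.2. AL136295.5 (1.10 and 1.23 RPKM) overlaps 34.8% of the RNF31 exon bases on the same strand. PSME2 (218 and 153 RPKM) overlaps 4.34% of them on the opposite strand. The part of both in the RNF31 value was not tested. The RNF31 partner genes RBCK1 (54.5 and 60.4 RPKM) and SHARPIN (28.6 and 29.1) also lay under 2-fold. So did OTULIN, whose product cuts linear chains (15.1 and 12.7). RNF216 stood at 16.96 and 17.6 RPKM beside its pseudogene RNF216P1 at 14.9 and 11.98, and no source used here says how reads common to both were assigned. RNF19A (15.2 and 13.01), RNF217 (8.88 and 11.2), RNF19B (6.37 and 6.003) and RNF144A (4.35 and 4.46) completed the set, with RNF144B under the filter.

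Ligases of chromatin and DNA damage had 0 of 7 members called, near the 6.11% of protein-coding genes, with RNF8 nearest to 2-fold. RNF8, which starts the ubiquitin response at DNA breaks, stood at 8.03 RPKM in WT and 12.7 with MYOCD (log2 change of 0.63). RNF168, which extends that signal on histone H2A, stood at 4.70 and 4.78, and RNF169 at 5.74 and 7.69. RN7SL273P, a small RNA model, lies in RNF8 exons on the same strand, and its part in the RNF8 value was not tested. MDC1, the scaffold that RNF8 binds, differed in the opposite direction, with 23.3 and 11.5 RPKM and a log2 change of -0.99. Its ratio of deposited MYOCD to WT values is 0.494, so it misses 2-fold only once the pseudocount is added. TP53BP1 (16.8 and 22.04 RPKM) and BRCA1 (36.0 and 38.5), which act further down, lay closer to WT. The partners RNF20 and RNF40 place ubiquitin on histone H2B and stood at 15.7 and 13.7 RPKM and at 39.4 and 52.1 RPKM. RNF2, the catalytic subunit of Polycomb repressive complex 1, stood at 17.3 and 14.7, with its partners BMI1 at 49.7 and 47.2 and PCGF1 at 46.7 and 28.8 (log2 change of -0.69). RNF4, which targets SUMO-modified proteins, stood at 35.4 and 28.5.

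Of the RNF genes tied to TGF-beta and Wnt signalling 0 of 3 past the filter were called, where 6.11% of protein-coding genes were called. RNF111 (Arkadia), which amplifies TGF-beta signalling by degrading the repressors SKI and SKIL and the inhibitor SMAD7, stood at 34.4 and 37.4 RPKM in WT and MYOCD. SKIL stood at 66.5 and 51.3 RPKM, SKI at 15.8 and 19.2, and SMAD7 at 10.8 and 11.8. The relative RNF165 was at 0.303 and 0.632, under the filter. RNF146, which acts with tankyrase on axin, stood at 10.6 and 12.2 RPKM, beside AXIN1 at 7.61 and 10.3, TNKS at 15.03 and 12.6 and TNKS2 at 17.6 and 20.4. RNF220 stood at 21.03 and 19.4. A count of 0 among 3 is near the share of protein-coding genes called, and these values are too few to describe either pathway.

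Ligases of innate immunity and NF-kB signalling had 0 of 6 members called, near the 6.11% of protein-coding genes. Of the 6, 4 lay below 0, where 49.8% of all genes past the filter lay above 0. RNF213, a giant ATPase and ligase whose gene carries risk for moyamoya disease, was the second most abundant member at 136 RPKM in WT and 114 with MYOCD. RNF135 (Riplet), which activates the RNA sensor RIG-I, stood at 16.2 and 12.04, and DDX58, the RIG-I gene, at 1.30 and 1.81. RNF114, RNF138 and RNF166 form a family with RNF125, which turns RIG-I off. They stood at 30.3 and 33.3, at 20.5 and 15.8, and at 7.79 and 9.41 RPKM, while RNF125 was under the filter at 0.571 and 0.437. RNF34 stood at 23.0 and 22.2.

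The cytosolic and endosomal ligases were all expressed, with 13 of 13 past the filter, 0 called, and 10 of 13 below 0 (median of -0.13). Past the filter 6.11% of protein-coding genes were called, and 49.8% of all genes lay above 0. RNF10, which marks proteins of the small ribosomal subunit, was the most abundant member of all at 141 RPKM in WT and 128 with MYOCD. RNF181 stood at 65.1 and 57.7 and RNF7, the RING subunit of cullin 5 ligases, at 57.5 and 53.04. CUL5 itself stood at 16.8 and 15.2 RPKM and UBE2F, the enzyme that charges it with NEDD8, at 22.7 and 30.8. RNF126 (25.8 and 22.6 RPKM) and RNF115 (12.4 and 8.24) are relatives, the first of which clears stray membrane proteins. RNF115 had the lowest log2 change of the group, -0.57. RNF41, which limits the receptor ERBB3 and is stabilised by USP8, stood at 9.64 and 11.2, with ERBB3 at 3.64 and 4.39 and USP8 at 29.7 and 33.9. RNF44 (15.7 and 22.7, log2 change of 0.52) and RNF187 (21.8 and 29.2) were the furthest above 0, and RNF6 (24.0 and 17.01) and RNF123 (19.8 and 14.3) were among the lower ones. RNF11 and RNF25 stood at 28.2 and 27.1 and at 21.5 and 17.4 RPKM.

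Members named for restricted tissues were mostly silent, with 3 of 8 past the filter and 0 called, near the 6.11% of protein-coding genes. RNF207, known from heart muscle, was the exception at 18.4 RPKM in WT and 18.7 with MYOCD, although its exons overlap those of RPL22 (231 and 216 RPKM) and ICMT (37.9 and 49.5) on the opposite strand over 3.69% and 1.62% of their length. No source used here says whether the counting used strand, and the part of those genes in the value was not tested. RNF212, of meiotic recombination, stood at 3.65 and 3.08, and RNF32 at 2.90 and 4.13. Of the RNF32 exon bases, 8.90% overlap LMBR1 on the opposite strand (40.3 and 51.1 RPKM), and its part in the RNF32 value was not tested. RNF17, RNF39, RNF112, RNF151 and RNF212B lay at or under 0.485 RPKM. In the remaining set of 11 RNF genes 5 passed, with RNF141 highest at 18.02 and 14.08 and RNF157 the furthest above 0 at 2.55 and 3.75 RPKM. RNF219 stood at 9.17 and 7.60 and RNF214 at 6.89 and 7.68. RNF113A stood at 5.58 in both, but 25.2% of its exon bases overlap NDUFA1 on the opposite strand (77.8 and 76.2 RPKM).

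The rest of the ubiquitin machinery was compared through lists of its gene families. None of the 6 ubiquitin and E1 genes, 30 E2 genes, 13 cullin core genes, 44 TRIM ligase genes and 45 USP deubiquitinase genes past the filter was called in either direction. Past the filter 11.8% of all genes and 6.11% of protein-coding genes were called, and 2.28% of protein-coding genes with a mean of at least 20 RPKM. For the ubiquitin and E1, E2 and cullin lists, mostly well expressed, counts of 0 are near the last share. The TRIM and USP lists are longer and lower, with medians of 10.4 and 18.9 RPKM in WT and 11.1 and 17.0 with MYOCD. Of protein-coding genes with a higher value of 1 to 15 RPKM, 9.55% were called. UBB stood at 595 and 520 RPKM in WT and MYOCD and RPS27A, a ubiquitin fusion gene, at 878 and 803. UBA6, the lesser E1, stood at 29.04 and 44.9 RPKM (log2 change of 0.62), the largest change in its list. Of the E2 genes, UBE2S (274 and 287) and UBE2D3, which serves many RING ligases (171 and 159), were the most abundant. Among 27 HECT ligase genes HECW2 was lower, with 5.76 and 1.79 RPKM, and 0 were higher.

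Among 29 RING and RING-between-RING ligase genes with other names past the filter 0 were called, with TRAF6 (7.33 and 4.19 RPKM) the furthest below 0 and CBL (7.07 and 10.3) the furthest above. MDM2, the most abundant of these, stood at 232 and 169. Of 24 deubiquitinase genes outside the USP family 2 were higher and 0 lower, where 3.01% of protein-coding genes were higher and 3.1% lower. OTUB2 stood at 1.43 RPKM in WT and 8.94 with MYOCD, a log2 change of 2.29, and STAMBPL1, which cuts chains on endosomes, at 3.99 and 11.9, a log2 change of 1.46. The most abundant gene of that list, UCHL1, stood at 447 and 388. List medians ran from -0.08 for USP genes to 0.12 for the RING ligases with other names, near the -0.00 of all genes.

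**Figure D5:**
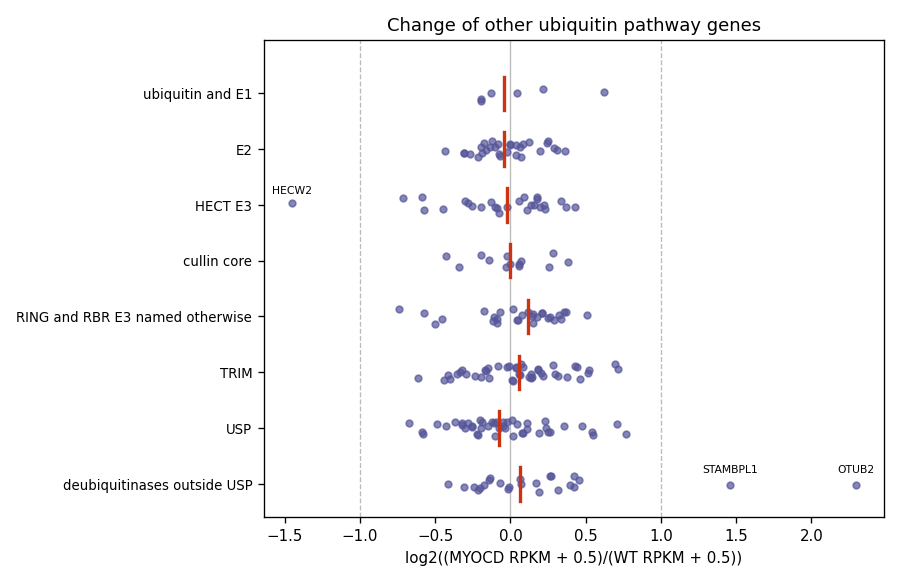
Each point is a gene past the filter, placed by its log2 change between the MYOCD and the WT library (horizontal axis) and by list of the ubiquitin pathway (vertical axis), with red bars at list medians and dashed lines at 2-fold. OTUB2, STAMBPL1 and HECW2 are the 3 genes beyond the dashed lines.

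Surface proteins that MARCH ligases are known to remove were measured as well. CD44 stood at 199 RPKM in WT and 285 with MYOCD (log2 change of 0.51), SLC3A2 at 449 and 561, BSG at 300.03 and 318, and the transferrin receptor gene TFRC at 114 and 133. These 4 lay above 0 and under 2-fold, while HLA-DRA and CD86, the immune targets in the list, were listed at 0 in both libraries. No MHC class I gene was in the list. Of the mitochondrial proteins tied to MARCH5, MFN1 (25.8 and 24.7 RPKM), MFN2 (23.1 and 24.1) and DNM1L (53.8 and 57.03) lay close to WT. Over the whole list of partners and substrates, 0 of 42 genes past the filter were called, beside 6.11% of protein-coding genes, and the median was 0.07. MDC1, in that list, differed by more than 2-fold between the deposited values, before the pseudocount. These are transcript levels, and protein levels of the targets were not measured.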

How the data were processed

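RNA of WT and MYOCD-overexpressing A549 cells was measured in 2 libraries. The authors deposited 1 table of RPKM values with 57979 rows and 1 column per group, per the file headers. The submitters' processing notes name Bowtie 0.12.2, GRCh38.p12 and mm8; mm8 is a mouse assembly, and no source used here gives the role of each, the counting tool or its use of strand. The value of 1 read was sought in low RPKM values of genes of 2000 nt or longer with 1 transcript: 30.3% (WT) and 31.6% (MYOCD) lay within 0.1 of a whole number, where chance gives 20%, so depth is unknown and no count test or interval was used.

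Symbols were used as deposited, except that 27 date-form rows took the GENCODE 29 symbol of their Ensembl identifier; a symbol on several rows used the row with the higher mean. Summed RPKM was 886700 in WT and 880876 in MYOCD, and 57375 rows matched GENCODE 29 (GRCh38), which gave positions and exons. A pseudocount of 0.5 RPKM, a filter of 1 RPKM and a 2-fold rule of size were used (Python 3.11.15, pandas 2.3.3). The code for the rule was run on WT values well above the filter with large changes put in and no noise. The outcome of that run was fixed in advance, and it does not show how the rule works for genes near the filter. The members and lists were chosen with earlier results of these data known. Genes named were those beyond 1.5-fold or 2-fold, the most abundant of each group or list, and partners of named members; neighbours within 500 kb, local medians within 5 Mb and the band of 1 to 15 RPKM were added after values were seen. Some single genes counted in the groups are not reported here by name. Alternatives changed the pseudocount, filter, scaling and fold threshold.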

Additional observations from a re-analysis of the deposited data

How the results depend on the processing

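With each group a single library, no replicate could be left out and no paired analysis was possible because each group has 1 library. The same 6 members were called under 8 of 11 alternatives: pseudocounts of 0.1 and 1 RPKM, no filter, a filter on the mean, and 4 scalings, of which the scaling to 11 steady reference genes and the limit to members whose exons overlap no other gene were chosen after seeing the data. With at least 5 RPKM in a library, 3 remained higher (RNF128, MARCH4 and MARCH9), since MARCH10, RNF122 and RNF182 fall under that filter. With a threshold of 1.5-fold, 10 were higher and 1 lower. Without members whose exons overlap another gene, 4 of 31 were higher, MARCH4 and MARCH10 being left out. Such an overlap was present in 45 members, and only some of these overlaps are named above. The RNF median of 0.02 was -0.00 at 5 RPKM. The scaling to steady reference genes moves log2 changes upward by 0.09, and by less for genes of low RPKM, and the other scalings by 0.01 or less. Members just below 0, such as RNF11 and RNF34, lie above 0 under the first, which leaves 8 of the 13 cytosolic and endosomal members below 0. All 11 members beyond 1.5-fold kept their direction and side of 2-fold in the 96 values computed. Depth is unknown, so ratios from values under 1 RPKM have no counting error attached.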

Other observations

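The median log2 change differed between chromosomes, and members lay near to or away from the median of their surroundings. Of 23 chromosomes, chromosome 22 had the highest median log2 change over protein-coding genes past the filter, 0.30 over 297 genes, with 80.1% above 0, and chromosome 9 the lowest, -0.12 over 511 genes, with 38.6% above 0. The next highest was chromosome 16 at 0.05. Around RNF215 and RNF185 on chromosome 22 the median of genes within 5 Mb was 0.29, so RNF215 lay 0.37 above its surroundings and RNF185 0.30 below. Around RNF20, on chromosome 9, the local median was -0.17, beside -0.20 for RNF20 itself (15.7 and 13.7 RPKM). Around the 6 members called higher, medians within 5 Mb lay between -0.12 (RNF182) and 0.10 (MARCH4). Within 500 kb the median around RNF128 was 0.98, and those around the others lay between -0.18 (RNF182) and 0.24 (RNF122). The labels give no copy number for either culture, and its part in these values was not tested.

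Some gene models that carry a member's name but are not members also had values. RNF185-AS1, an antisense model of 353 nt, stood at 18.4 RPKM in WT and 12.7 with MYOCD. All of its 353 nt lie within RNF185 exons on the opposite strand. No source used here gives the use of strand, and the part of RNF185 reads in this value was not tested. RNF2P1, a processed pseudogene of RNF2, stood at 1.71 and 1.87 RPKM, and RNF139-AS1 at 1.15 and 1.59. MARC1 (5.16 and 5.87 RPKM) and MARC2 (8.67 and 11.4) share date labels with MARCH1 and MARCH2. Taken by label with the higher mean, 1-Mar would have returned MARC1 in place of MARCH1 at 1.56 and 1.45 RPKM.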
